A study of Mus musculus with 2 samples.

Results

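In mouse primordial germ cells (PGCs) that over-expressed Klf9, 226 genes stood clearly above their control level, among 11416 genes that could meet the rule and 23154 gene symbols with 1 row in each file. A gene was taken when Cufflinks estimated it without failure in both libraries, when its FPKM was above 0 in control PGCs and at least 1 in Klf9-OE PGCs, and when the lower bound of its 95% interval in Klf9-OE PGCs was at least 1.5 times the upper bound in control PGCs. FPKM are fragments per kilobase of transcript scaled to the depth of the library, a level per length that can be set side by side between genes. Joint names were left out, as were symbols of the Mir, Snor, Klf, Etv, Spry, Spred, Dusp, Hist, Col, Lam, Itg, Cdh, Adcy, Ifi, Oas and Gbp families. The members were chosen by the FPKM and interval bounds of these same libraries, so every FPKM, fold and interval of these genes is a description and none of them was tested.

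The cells were E13.5 PGCs sorted for strong GFP from embryos of MCH females mated with Oct4-deltaPE-GFP males on a C57BL/6J background. They were infected at an MOI of 5 with a CSII-EF lentivirus that carried the Klf9 coding region (Klf9-OE) or with the control vector (control), and RNA was taken after 1 day of culture. The labels describe a GS medium with bFGF for both libraries, whereas the paper presents the sequenced 1-day culture as one that lacked bFGF, so the presence of this growth factor cannot be told from the sources. Each group was 1 library, the genital ridges came from male and female embryos, and the Cufflinks interval covers the estimate within a library and not the difference between cultures.

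PGCs are the embryonic precursors of eggs and sperm, and in culture with growth factors some of them can be reprogrammed to pluripotent embryonic germ cells. KLF9 is a zinc finger factor that binds GC-rich and CACCC sequences and is known mainly as a repressor that recruits SIN3A. Growth factor receptors signal through the kinase ERK to SRF with ETS partners and to AP-1, which turn on genes such as Egr1, Vgf and Plaur, and inflammatory and interferon signals turn on chemokine genes.

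Klf9 itself had an FPKM of 2.27 (1.97 to 2.57) without the vector gene and 80.8 (77.0 to 84.5) with it, where parentheses hold the bounds of the 95% interval here and below. The direction was that of the vector, whose reads could not be told from those of the native gene. The widths of its intervals implied 229.6 and 1825 reads, a ratio of 7.95 beside an FPKM ratio of 35.6, so that Klf9 was not read-matched by the measure described with the members, and its assembled locus differed between the files. Among 12 germ cell markers the summed FPKM was 2110 in control PGCs and 1803 in Klf9-OE PGCs, so both libraries carried the markers of the labelled cell type, and 11 of the 12 were lower in Klf9-OE PGCs.

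The median FPKM of the 226 genes was 2.65 in control PGCs and 6.99 in Klf9-OE PGCs. Their median ratio was 2.52, from 1.65 to 26.1, and their median difference in log2(FPKM + 0.1) was 1.28, against -0.02 over all 11416 eligible genes. At least 10-fold higher were 12 genes, at least 5-fold 34, at least 3-fold 83 and at least 2-fold 179, and 47 were less than 2-fold higher. In control PGCs 56 of the genes were under an FPKM of 1, and in Klf9-OE PGCs 135 were still under 10 and 12 reached 100. The genes taken were 1.98% of the eligible genes. The same rule in the opposite direction took 274 of 11388 genes, or 2.41%. Without the gap of 1.5, intervals that merely did not overlap put 1666 genes (14.6%) on the higher side and 2373 (20.8%) on the lower side. On the X chromosome lay 11 of the genes taken (4.87%), against 4.04% of the eligible genes.

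**Figure D1:**
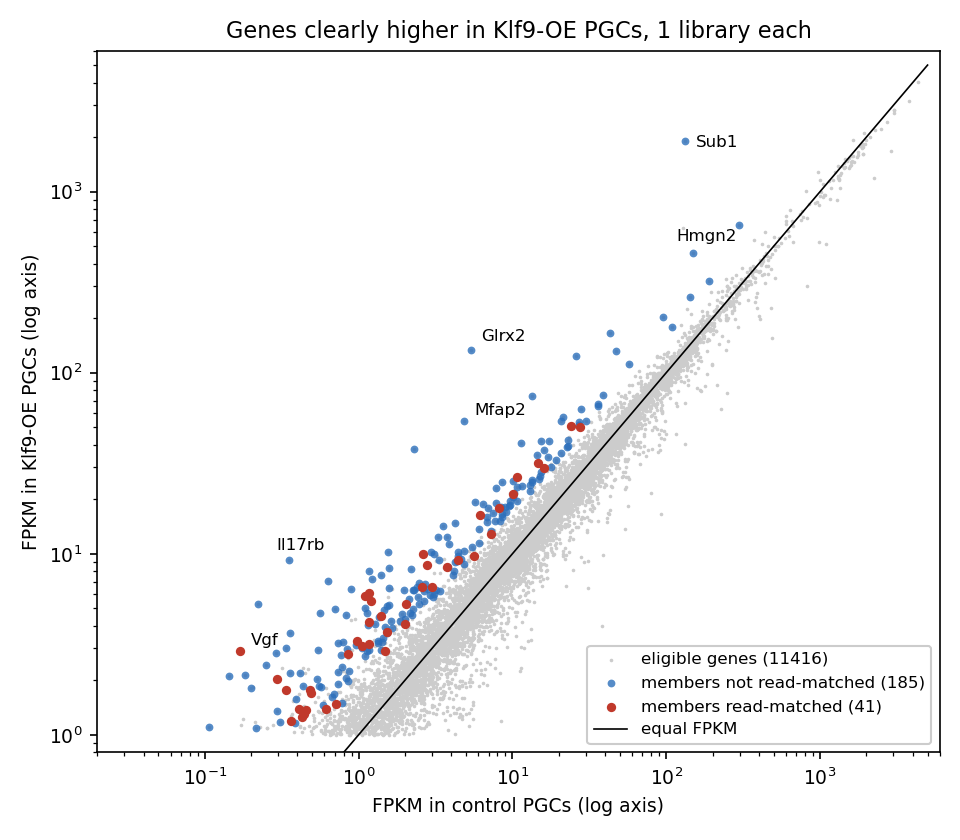
FPKM of each gene in control PGCs (horizontal, log axis) and in Klf9-OE PGCs (vertical, log axis), 1 library each, with the 11416 eligible genes in grey, 41 read-matched members in red, 185 other members in blue and a line of equal FPKM. Members lie above the line by the rule, most of them at low FPKM, and the 12 that reach an FPKM of 100 in Klf9-OE PGCs are all blue.

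A gap between intervals did not mean that many reads lay behind it. For a gene with 1 transcript, a read number can be worked out from the width of its interval, as the square of 2 times the FPKM divided by its distance to the upper bound. By this measure the Klf9-OE library held 1.21 reads for each control read (median over 7109 genes, quartiles 1.11 and 1.25). Implied read numbers from 1 to 9 were even for 88.1% of genes in the Klf9-OE library, against 39.7% in control PGCs. The reason was not tested, so this depth and the Klf9-OE read numbers are implied and not counted. A common factor in them would change which genes have fewer implied reads, but not which are read-matched. A gene is called read-matched here when its ratio of implied reads, corrected for that depth, lay within 10% of its ratio of FPKM. This held for 5778 of the 11416 eligible genes (50.6%) but for only 41 of the 226 higher genes (18.1%), and for 71 of the 274 lower genes (25.9%). In the other 185 higher genes these ratios parted by more than 10%. Of the 226 genes, 69 (30.5%) had fewer implied reads in Klf9-OE PGCs although their FPKM was higher. Of all eligible genes 23.9% had fewer implied reads, but 6098 of the 11416 had lower FPKM, so this share is not a like background. The share among eligible genes with higher FPKM was not worked out. The assembled locus had the same bounds in both files for 38 of the 41 read-matched genes (92.7%), for 104 of the 185 others (56.2%) and for 71.7% of the eligible genes. The part of locus assembly and transcript assignment in the FPKM of these 185 genes was not tested. The read-matched genes are described first, and this split was chosen after the values were seen.

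**Figure D2:**
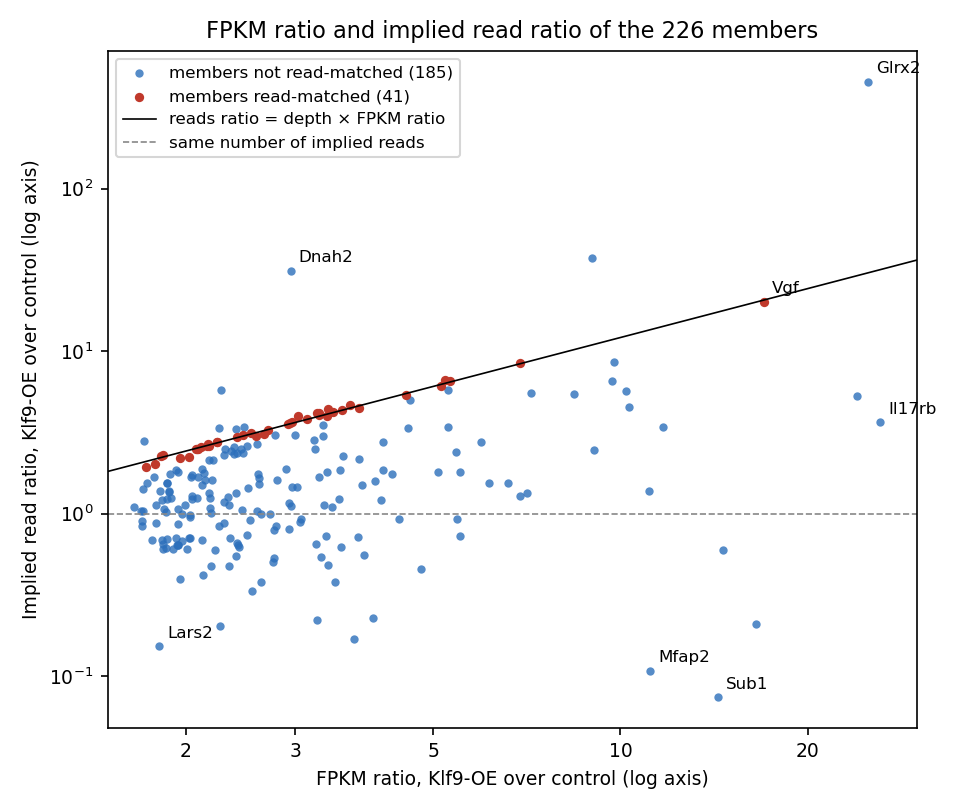
Ratio of FPKM (horizontal, log axis) and ratio of implied reads (vertical, log axis), Klf9-OE over control, of the 226 members, with the 41 read-matched members in red and the 185 others in blue. The solid line is the FPKM ratio times the depth of 1.21, and the 69 points under the dashed line had fewer implied reads in Klf9-OE PGCs, with Sub1 the lowest of them.

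Sequence upstream of 6 members is shown because it holds letters that growth factor, stress or interferon signals are known to act through. These genes were picked for the matches. All but Srf were read-matched, and Srf stood just inside the threshold. Each line is the 250 bases before the RefSeq start site in GRCm38.p6 (the build of mm10), 5′ to 3′ on the strand of the gene, with capitals on AP-1 matches (TGANTCA), interferon-response elements (ISRE) on either strand and CArG boxes (CC, 6 bases of A or T, GG), which SRF binds. The windows are chr7:24462233-24462482 on the forward strand for Plaur, chr1:107511173-107511422 (forward) for Serpinb2, chr10:56377050-56377299 (forward) for Gja1, chr5:92348890-92349139 (reverse) for Cxcl10, chr12:26456453-26456702 (reverse) for Rsad2 and chr17:46556163-46556412 (reverse) for Srf.
Plaur: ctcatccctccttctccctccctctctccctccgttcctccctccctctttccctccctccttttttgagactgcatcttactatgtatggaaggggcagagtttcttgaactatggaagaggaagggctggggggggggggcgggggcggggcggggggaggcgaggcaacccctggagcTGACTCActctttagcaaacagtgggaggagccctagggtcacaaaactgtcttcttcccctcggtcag
Serpinb2: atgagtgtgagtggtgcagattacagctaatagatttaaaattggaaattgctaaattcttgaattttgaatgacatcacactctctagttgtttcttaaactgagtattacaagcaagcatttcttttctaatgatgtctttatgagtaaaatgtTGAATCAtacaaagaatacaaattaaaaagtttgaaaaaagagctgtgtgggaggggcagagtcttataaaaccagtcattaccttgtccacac
Gja1: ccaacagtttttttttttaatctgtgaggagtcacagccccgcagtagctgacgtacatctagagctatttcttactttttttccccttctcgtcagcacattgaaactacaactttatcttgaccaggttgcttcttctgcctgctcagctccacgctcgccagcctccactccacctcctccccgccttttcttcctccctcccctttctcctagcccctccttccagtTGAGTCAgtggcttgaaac
Cxcl10: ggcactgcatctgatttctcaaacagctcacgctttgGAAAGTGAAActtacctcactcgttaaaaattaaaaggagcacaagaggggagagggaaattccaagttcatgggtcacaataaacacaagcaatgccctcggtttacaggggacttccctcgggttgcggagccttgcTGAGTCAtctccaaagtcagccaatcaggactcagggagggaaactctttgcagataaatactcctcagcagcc
Rsad2: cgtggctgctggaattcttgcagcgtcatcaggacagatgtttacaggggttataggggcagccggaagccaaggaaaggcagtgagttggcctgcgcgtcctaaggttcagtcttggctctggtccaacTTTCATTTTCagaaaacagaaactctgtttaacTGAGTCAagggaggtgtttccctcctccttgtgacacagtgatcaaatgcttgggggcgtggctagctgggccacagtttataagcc
Srf: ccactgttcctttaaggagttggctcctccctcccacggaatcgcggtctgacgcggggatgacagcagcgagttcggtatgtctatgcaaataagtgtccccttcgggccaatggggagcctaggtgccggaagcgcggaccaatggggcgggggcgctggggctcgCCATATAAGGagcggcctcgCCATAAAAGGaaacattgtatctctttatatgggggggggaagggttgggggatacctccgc

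The AP-1 match began 69 bases before the start in Plaur, 94 in Serpinb2, 19 in Gja1, 74 in Cxcl10 and 87 in Rsad2. Over all 32851 promoter windows of this length, 6.75% held an AP-1 match on either strand. An ISRE began 213 bases before the start in Cxcl10 and 120 in Rsad2, and 2.98% of all windows held one. Srf, which encodes the factor that binds CArG boxes, had 2 of them, beginning 82 and 62 bases before its own start, where 1.47% of all windows held at least 1. Plaur also held the GC box letters GGGCGG, beginning 111, 105 and 100 bases before its start, the last pair sharing a base. Srf held 1 GC box, beginning 103 bases before its start, and 32.7% of all windows held a GC box. No GC box was found on either strand in the lines of Serpinb2, Gja1, Cxcl10 and Rsad2. The letters CACCC, which KLF9 also binds, were found in none of the lines shown, on either strand. Over all windows these letters were more common than the GC box. A match is a run of letters and no evidence of binding. The promoter table held 168 of the 226 genes (74.3%), too few for a comparison of motif shares between the members and other genes, and that comparison is void.

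Genes that respond to ERK signaling are taken first. Vgf, which encodes a neuropeptide precursor turned on by growth factors (chr5:137030295-137033351), was at 0.170 (0.0675 to 0.273) in the control library and at 2.89 (2.50 to 3.28) in the Klf9-OE library (control is given first from here on). It stood highest of the read-matched genes by ratio, 17.0-fold, with 11 implied reads in control PGCs and 222 in Klf9-OE PGCs. Egr1, an immediate early zinc finger factor, had 3.76 (3.32 to 4.20) and 8.45 (7.85 to 9.04), a ratio of 2.25 with 293 and 804 implied reads. Plaur, the urokinase receptor whose AP-1 and GC box letters are shown above (chr7:24462500-24475873), had 2.77 (2.18 to 3.36) and 8.69 (7.75 to 9.63). These 3 genes were read-matched, and their intervals lay apart, which the rule requires of every member. The Klf9-OE lower bound was 9.17 times the control upper bound for Vgf, 1.87 times for Egr1 and 2.31 times for Plaur. The median over all members was 1.84.

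Plk3, a kinase of the stress response, went from 2.43 (2.01 to 2.86) to 5.75 (5.12 to 6.39), and Srf from 13.1 (12.2 to 13.9) to 22.3 (20.9 to 23.7), neither read-matched. Srf stood just inside the threshold, with 947 implied reads in control PGCs and 987 in Klf9-OE PGCs, an increase smaller than the difference in depth between the libraries. Of the 43 eligible genes in a list of ERK-responsive genes, these 5 were members (11.6%, against 1.98% of all eligible genes), none was clearly lower and the median difference in log2(FPKM + 0.1), the scale of all list medians here, was 0.19. The rule left out by family 15 genes that passed the interval gap. Among them were Dusp2, Dusp4, Dusp5, Dusp6, Etv1, Etv4, Etv5 and Spry4, genes of the same pathway. Of these only Dusp6, Etv1 and Spry4 were read-matched. The others left out were Klf9, Adcy2, Cdh5, Lamtor3, Col5a2, Col11a2 and Col6a4, and no share within each family was counted. The members and lists were picked with earlier results in view, so the count of ERK-responsive members gives no independent support.

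Secreted signals of inflammation made up the next group. Cxcl10, an interferon-induced chemokine (chr5:92346639-92348889), went from 1.18 (0.739 to 1.61) to 6.05 (5.14 to 6.96). The monocyte attractants Ccl2 and Ccl7 lie 8260 bases apart on chromosome 11, and Ccl2 went from 8.21 (6.80 to 9.61) to 17.9 (16.003 to 19.8) while Ccl7 went from 0.977 (0.488 to 1.46) to 3.30 (2.47 to 4.13). Cxcl5, which attracts neutrophils, went from 0.850 (0.556 to 1.14) to 2.79 (2.31 to 3.27). All 4 chemokines were read-matched, Ccl2 was the most abundant of them in both libraries, and Cxcl10 had the largest ratio, 5.14-fold.

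Other members of this group were not read-matched. Spp1, a secreted phosphoprotein also counted with the matrix, had 30.3 (28.1 to 32.5) and 53.8 (50.8 to 56.8). Csf1r, the macrophage growth factor receptor, had 0.307 (0.196 to 0.417) and 1.18 (0.834 to 1.53), and the BAFF receptor gene Tnfrsf13c had 0.733 (0.477 to 0.988) and 3.23 (2.06 to 4.40). Il17rb, an interleukin receptor chain, had the largest ratio of all 226 genes, 26.1-fold, but from 0.352 (0 to 0.717) to 9.202 (4.21 to 14.2) with 3.72 and 13.6 implied reads. In all, 8 of 57 eligible cytokines, chemokines and receptors were members (14.04%), 1 was clearly lower (Il18r1), and the list's median difference was 0.29. Of its 35 read-matched genes, 4 were members (11.4%), against 41 of 5778 read-matched genes overall (0.710%). Over the other lists this share ranged from 0% to 11.1%, the latter for ERK-responsive genes (3 of 27). In the lower direction the overall share was 71 of 5761 (1.23%). Members and lists were picked with earlier results in view, and the read-matched split after values were seen. These shares therefore give no independent support.

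Acute-phase and innate defence genes outside that list were also present. Ptx3, a soluble pattern recognition protein (chr3:66219887-66225806), went from 0.296 (0.138 to 0.454) to 2.04 (1.67 to 2.42), a ratio of 6.91. Saa3, an acute-phase apolipoprotein, went from 14.6 (12.1 to 17.2) to 31.6 (28.2 to 35.0). Rsad2, the antiviral enzyme viperin, went from 0.426 (0.293 to 0.558) to 1.26 (1.06 to 1.47). These genes were read-matched and low to moderate in level. Over the whole list of interferon-induced and antigen presentation genes, 5 of 101 were members (4.95%, namely Cxcl10, Rsad2, Triml1, Tor3a and Helz2) and 4 were clearly lower, with a median difference of 0.02. Triml1 entered that list only through the Trim prefix.

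Genes for proteolysis outside the cell followed. Serpinb2, an inhibitor of plasminogen activators (chr1:107511423-107525600), had 1.21 (0.885 to 1.54) and 5.49 (4.85 to 6.13), a ratio of 4.53. Mmp9, a gelatinase, had 7.22 (6.599 to 7.84) and 12.9 (12.1 to 13.7), with a ratio of only 1.79 but 540.2 and 1085 implied reads. Cemip, which takes part in the breakdown of hyaluronan, had 0.494 (0.392 to 0.596) and 1.71 (1.53 to 1.88). With Plaur, Serpinb2 and Mmp9 made 3 read-matched members of the urokinase and protease list, and Pros1, a cofactor of anticoagulation, was the fourth of 78 genes (5.13%), at 3.08 (2.69 to 3.47) and 5.99 (5.26 to 6.71). Serping1 and A2m, both protease inhibitors, were clearly lower.

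Matrix and adhesion genes gave 9 of 85 members (10.6%) and 3 clearly lower genes, with a median difference of 0.10, but only Mpzl2 of the 9 was read-matched. Mpzl2, an immunoglobulin-type adhesion protein, went from 3.002 (2.62 to 3.39) to 6.52 (6.01 to 7.03). Nid1, which links laminin and collagen in basement membrane, went from 8.53 (8.07 to 8.997) to 25.01 (23.8 to 26.3), and Thbs1, a matrix glycoprotein, from 4.12 (3.79 to 4.45) to 7.68 (7.19 to 8.18). The largest ratio of the list was that of Mfap2, a microfibril protein, from 4.85 (3.92 to 5.79) to 54.1 (22.3 to 85.9), where the implied reads went the other way, from 108 to 11.6. Vcam1, Pcdh7, Igsf21 and Efemp2, at ratios from 1.89 to 3.001, and Spp1 completed the list.

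**Figure D3:**
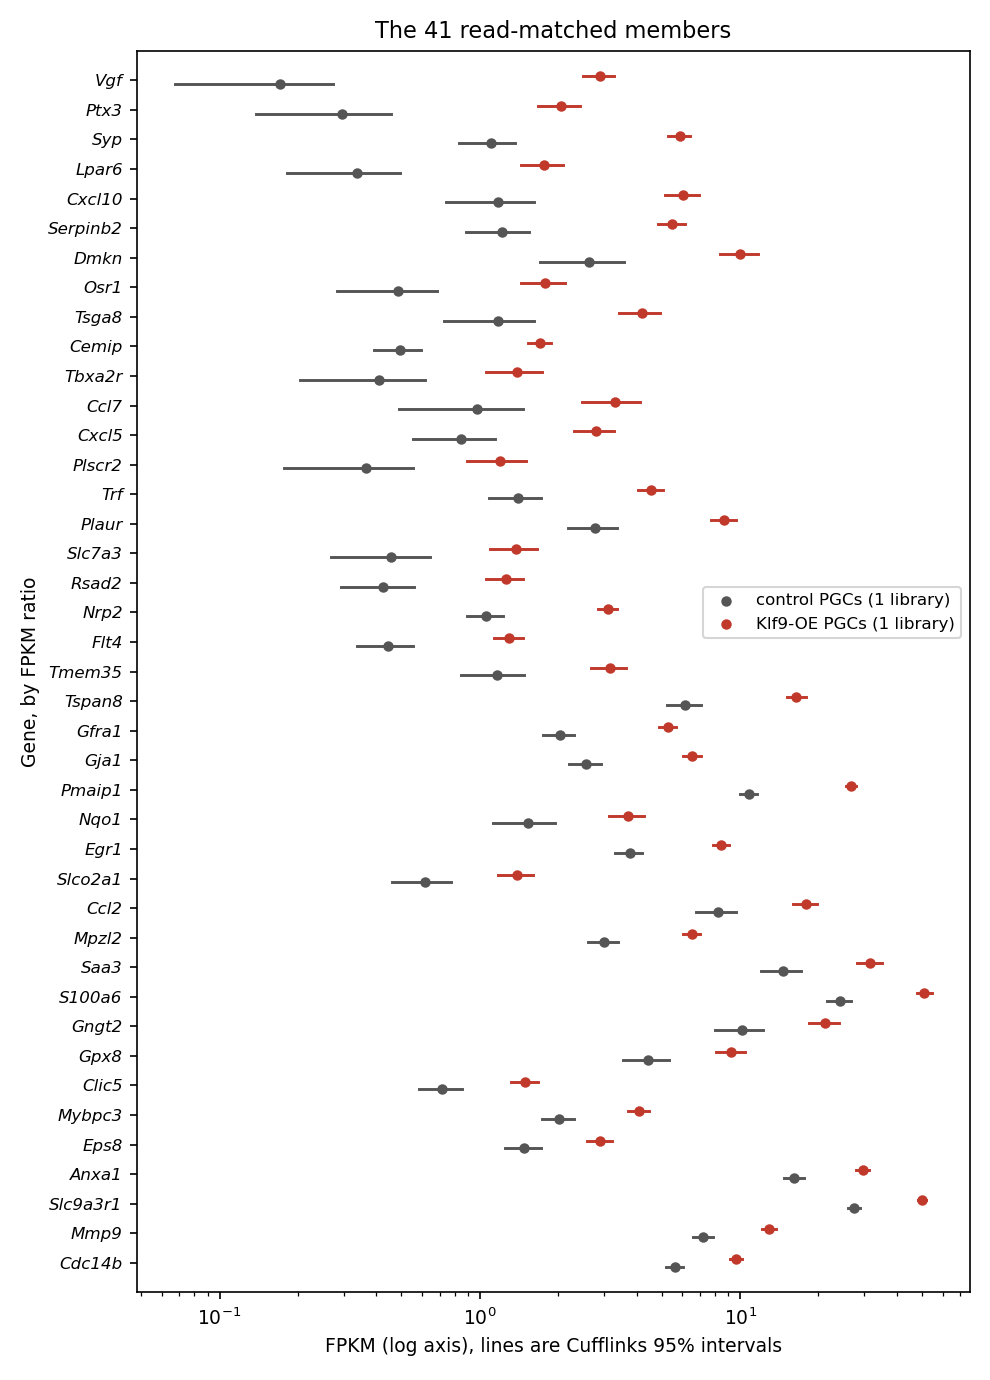
FPKM of the 41 read-matched members in control PGCs (grey) and Klf9-OE PGCs (red), 1 library each, on a log axis, ordered by their ratio, with lines for the Cufflinks 95% intervals. Vgf stands at the top with a ratio of 17.0 and Cdc14b at the bottom with 1.73, and no interval of a gene in Klf9-OE PGCs reaches that in control PGCs, which the rule requires.

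Receptors at the cell surface included both parts of the GDNF receptor. Gfra1, which binds the ligand GDNF (chr19:58235581-58455398), had 2.03 (1.76 to 2.31) and 5.27 (4.86 to 5.69) and was read-matched. Ret, its signaling tyrosine kinase (chr6:118151748-118197744), had 10.03 (9.46 to 10.6) and 25.2 (24.1 to 26.4) and was not read-matched, with 1263 and 1819 implied reads. Their ratios were 2.60 and 2.52, and this receptor is known for the upkeep of spermatogonial stem cells. Flt4, a receptor for vascular endothelial growth factors, had 0.445 (0.336 to 0.553) and 1.30 (1.13 to 1.47), and Nrp2, its co-receptor, had 1.06 (0.891 to 1.22) and 3.11 (2.86 to 3.37), both read-matched. Receptor kinases and adaptors gave 3 members of 61 (4.92%) and 1 clearly lower gene, Igf1r, with a median difference of -0.08.

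Some receptors coupled to G proteins were members. Lpar6, a receptor for lysophosphatidic acid (chr14:73237891-73240358), had 0.337 (0.181 to 0.493) and 1.76 (1.44 to 2.08) and was read-matched. Tbxa2r, the thromboxane receptor, had 0.411 (0.205 to 0.617) and 1.39 (1.06 to 1.73) and was read-matched too. It had been placed among the lineage transcription factors through the Tbx prefix, so the count for the receptor list leaves it out. That count was 2 of 63 (3.17%, Lpar6 and Gipr), against 1.98% of all eligible genes. Pth1r was the clearly lower gene of that list. Slco2a1, which carries prostaglandins, had 0.616 (0.461 to 0.772) and 1.38 (1.17 to 1.59), and Gngt2, a G protein gamma subunit, had 10.1 (8.04 to 12.3) and 21.3 (18.5 to 24.1). The levels of Lpar6, Gipr and Tbxa2r stayed under an FPKM of 2 in Klf9-OE PGCs, where the subunit Gngt2 was at 21.3. The receptor list also leaves out Mrgpra6, a Mas-related G protein-coupled receptor. It was a member at far higher FPKM, 109 (104 to 114) and 179 (172 to 187), and was not read-matched.

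Cell stress genes were led by Pmaip1, the pro-apoptotic p53 target Noxa, with 10.8 (9.99 to 11.6) and 26.7 (25.5 to 27.8), a ratio of 2.47 that rested on 722 and 2194 implied reads. Nqo1, a quinone reductase controlled by NRF2, had 1.54 (1.13 to 1.95) and 3.71 (3.13 to 4.28), and Gpx8, a peroxidase of the endoplasmic reticulum, had 4.43 (3.54 to 5.32) and 9.24 (8.06 to 10.4). Those 3 were read-matched, and Srxn1, which repairs oxidised peroxiredoxins, was a member without being read-matched, from 2.23 (1.88 to 2.58) to 4.56 (4.02 to 5.11). Members were 2 of 42 p53 targets (4.76%, with Plk3), and Ddit4 was clearly lower (1 of 41 eligible in that direction). Oxidative stress and metal genes gave 3 of 68 (4.41%, none clearly lower), and 0 of these 3 remained where the Klf9-OE interval was widened by the square root of 2. Integrated stress and unfolded protein genes gave 1 of 49 (2.04%), with Ddit4 and Ero1l clearly lower. The member was Slc7a3, a carrier of cationic amino acids, at 0.455 (0.269 to 0.642) and 1.38 (1.09 to 1.66).

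Among genes of the cytoskeleton and membrane, the read-matched members were mostly of moderate level. S100a6, a calcium-binding protein, had the highest Klf9-OE level of the 41, going from 24.1 (21.5 to 26.7) to 51.1 (47.6 to 54.6). Slc9a3r1, a scaffold under the plasma membrane that entered the transporter list only by its prefix, went from 27.4 (25.9 to 28.9) to 50.03 (48.2 to 51.9) with 1279 and 2888 implied reads. Anxa1, a phospholipid-binding annexin, went from 16.1 (14.7 to 17.5) to 29.7 (28.0 to 31.4). Gja1, a gap junction connexin, went from 2.57 (2.20 to 2.93) to 6.55 (6.02 to 7.07). The tetraspanin Tspan8 went from 6.15 (5.24 to 7.05) to 16.46 (15.1 to 17.8), and Eps8, which binds actin and growth factor receptors, from 1.48 (1.25 to 1.72) to 2.90 (2.59 to 3.21). Ratios in this group ran from 1.82 for Slc9a3r1 to 2.68 for Tspan8. Members of the actin and SRF target list were Flnc, Capg, Myo6 and Ankrd1, 4 of 111 (3.60%), and none was read-matched, with Myh11 and Myh14 clearly lower.

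Some read-matched members are known from other tissues. Syp, a protein of synaptic vesicles on the X chromosome (chrX:7638580-7653256), went from 1.10 (0.831 to 1.37) to 5.85 (5.30 to 6.41), a ratio of 5.32. Dmkn, secreted by epidermis, went from 2.64 (1.70 to 3.57) to 10.03 (8.34 to 11.7). Osr1, a zinc finger factor of the early kidney and gonad mesoderm, went from 0.484 (0.282 to 0.685) to 1.78 (1.43 to 2.12), and Trf, the iron carrier transferrin, from 1.399 (1.08 to 1.72) to 4.56 (4.05 to 5.07). Mybpc3, a myosin-binding protein of heart muscle, had a ratio of 2.03. The remaining read-matched members, Tsga8, Plscr2, Tmem35, Clic5 and Cdc14b, had ratios from 1.73 to 3.57 and reached at most 9.68 in Klf9-OE PGCs.

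The largest FPKM ratios belonged mainly to genes that were not read-matched. Of the 12 genes at least 10-fold higher, only Vgf was read-matched, 8 had fewer than 20 implied reads in control PGCs, and 4 lost implied reads in Klf9-OE PGCs. Glrx2, a mitochondrial glutaredoxin that the ion channel list caught by its prefix, went from 5.37 (0 to 22.6) to 134 (114 to 154), and the wide control interval implied 0.388 reads. 3010001F23Rik went from 0.221 (0 to 0.501) to 5.31 (2.37 to 8.24) and 1700001L19Rik from 2.30 (1.80 to 2.80) to 38.001 (19.9 to 56.1). Galnt13, which starts O-linked glycosylation, went from 0.144 (0.0885 to 0.200) to 2.11 (1.05 to 3.16). Il17rb and Vgf were described above, and the others of the 12 were 4933402C06Rik, Mfap2, 2400006E01Rik, Mlip, Pdcl2 and, with the highest level of all, Sub1.

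Sub1, a transcriptional coactivator that binds single-stranded DNA, went from 133 (130.1 to 135) to 1903 (1770 to 2036), a ratio of 14.3, while its implied reads went from 11037 to 820.0. The FPKM and the reads thus went opposite ways. The 12 members at an FPKM of 100 or more in Klf9-OE PGCs were Sub1, Snrpb, Hmgn2, Lsm8, Lars2, Zwint, Mrgpra6, Ciapin1, Glrx2, Hsbp1, Tpgs2 and Cdc123. None was read-matched, and 7 of them had fewer implied reads in Klf9-OE PGCs. Hmgn2, a nucleosome-binding protein, went from 149 (141 to 156) to 457 (432 to 481) with 1509 and 1390 implied reads, and Snrpb, a core splicing protein, from 299 (284 to 313) to 653 (624 to 682) with 1610 and 2007. Lars2, the mitochondrial leucyl-tRNA synthetase, went from 144 (141 to 146) to 261 (249.6 to 272), with 14151 implied reads in control PGCs and 2165 in Klf9-OE PGCs.

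Metabolism and signal transduction gave further members that were not read-matched. Pdk1, which restrains pyruvate dehydrogenase, went from 6.82 (6.28 to 7.36) to 15.04 (14.1 to 15.98), and Pfkl, a phosphofructokinase, from 4.40 (3.92 to 4.87) to 9.17 (8.29 to 10.1). With Slc16a4 and Pck2 they were 4 of 56 glycolysis and carbohydrate genes (7.14%), and none of that list was clearly lower or a read-matched member. Stk16, a membrane-anchored kinase (chr1:75210829-75215606), went from 13.49 (12.5 to 14.5) to 74.5 (67.9 to 81.2) with fewer implied reads, 688 and 502, and Mapk8, the stress kinase JNK, from 14.5 (13.7 to 15.3) to 35.1 (32.7 to 37.5) with 1315 and 861. Wnt3, a secreted ligand, was the only member of 83 growth factor and cytokine ligands (1.205%), at 2.26 (1.90 to 2.62) and 6.33 (5.24 to 7.43), and Dll1, Nrtn and Bdnf of that list were clearly lower (3 of 86, 3.49%).

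The remaining lists had shares of members on either side of the overall 1.98%, each resting on at most 8 genes. No member was found among 194 other transcription regulators and nuclear receptors or among 31 pluripotency genes. In the lower direction 33 pluripotency genes were eligible. Of these 4 were clearly lower (12.1%, against 2.41% of all genes eligible in that direction), namely Nanog, Dnmt3l, Upp1 and Fbxo15. Germ cell genes gave 1 of 80 (1.25%), Zp1, an egg coat protein at 0.295 (0.138 to 0.453) and 1.36 (1.03 to 1.68), with Dmc1 and Sohlh1 clearly lower. Lipid and sterol genes gave 1 of 158 (0.633%, Acsl5), with Apobec1 and Cpt1c clearly lower. Keratins and junction genes gave 1 of 63 (1.59%, Gja1), and the lower gene, Dscaml1, was brought in only by its prefix. Kinases and phosphatases gave 4 of 293 (1.37%) and 2 lower, and membrane trafficking genes 6 of 289 (2.08%) and 7 lower. Dnmt3l was among those 7 only through its prefix. Lineage transcription factors gave 5 of 154 as listed (3.25%) and 8 clearly lower, and the 5 were Gfi1b, Sox13 and Id4 together with Tbxa2r and Paxip1, which only their prefixes brought in. Transporters gave 8 of 220 higher (3.64%) and 8 lower. Ion channel and synaptic genes gave 6 of 124 higher (4.84%, Glrx2 among them) and 7 lower. Cell cycle and apoptosis regulators gave 5 of 147 (3.40%) and 1 lower (Bnipl), with Ccne2, a cyclin of the G1 to S transition, at 14.97 (13.9 to 16.05) and 25.9 (24.4 to 27.4). In all, 84 of the 226 genes were in at least 1 of the 25 lists and 142 were in none.

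**Figure D4:**
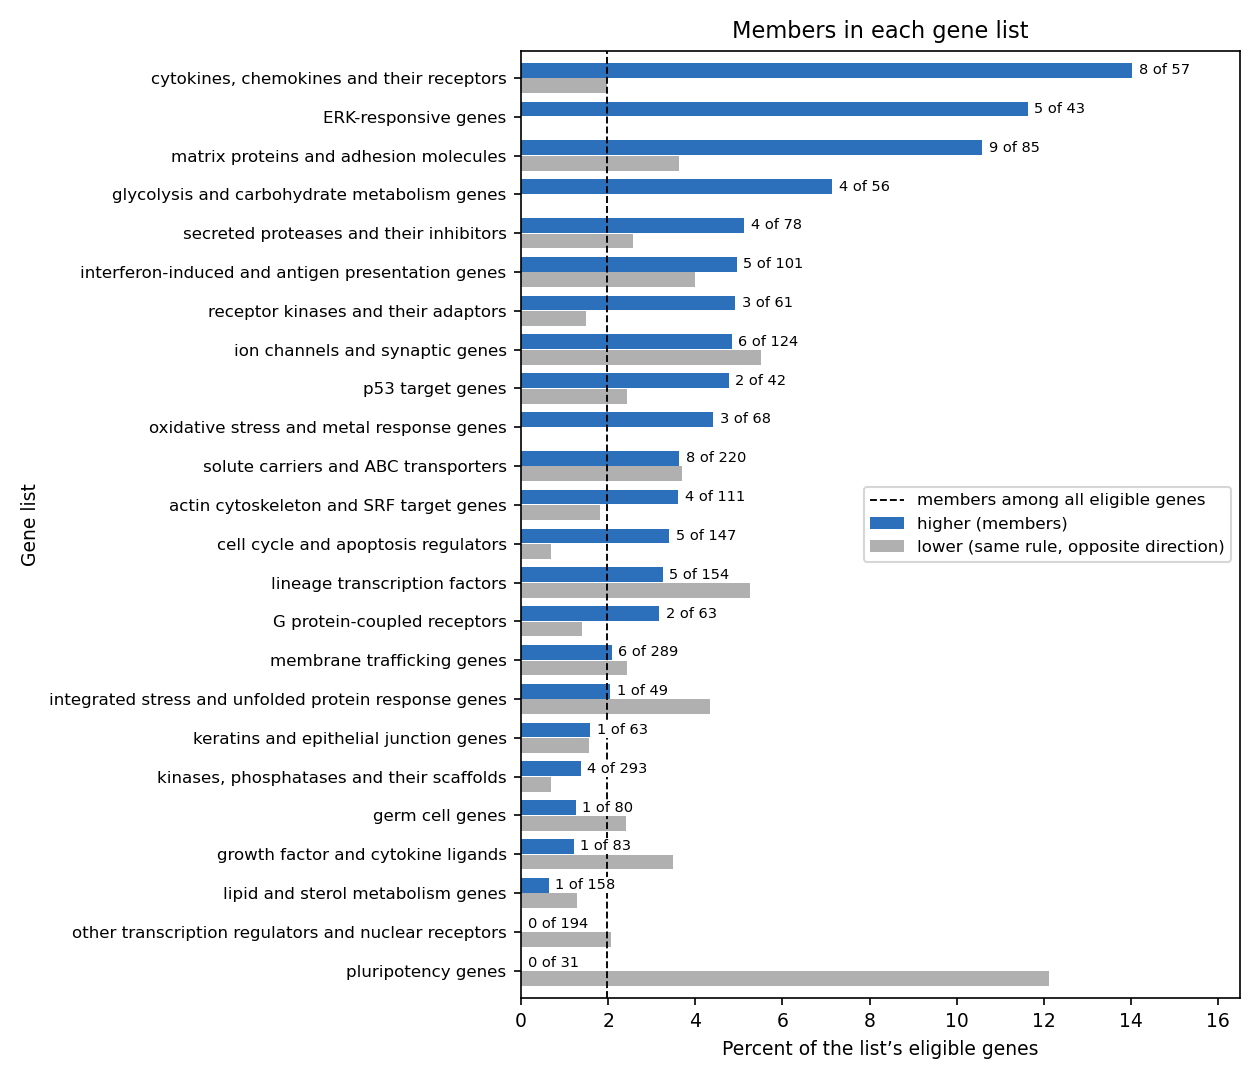
Share of each list's eligible genes that were members (blue, with the count) and that were clearly lower by the same rule in the opposite direction (grey), in percent, with the dashed line at 1.98%, the share of members among all eligible genes. Cytokines, ERK-responsive genes and matrix genes have the longest blue bars, at 14.04%, 11.6% and 10.6%, and pluripotency genes the longest grey bar, at 12.1%.

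Within 100000 bases of another member lay Ccl2 and Ccl7, Cdc20b and Gpx8, Polq and Stxbp5l, Fam71f1 and Flnc, Dmd and Tsga8, and Kdm5c and 3010001F23Rik. The spans of Cdc20b and Gpx8 overlap, as do those of Dmd and Tsga8, but the annotated exons of Gpx8, Dmd and Tsga8 overlap no exon of another annotated gene. Of each of these pairs, only Gpx8 and Tsga8 were read-matched. Exons overlapped an exon of another annotated gene for 68 of 221 annotated members (30.8%) and for 34.2% of the eligible genes.

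Markers of other cells were examined beside these results. The summed FPKM of 12 mesenchymal markers was 60.5 in control PGCs and 84.1 in Klf9-OE PGCs (8 higher, 4 lower, Lum listed at 0 in control), most of it from the smooth muscle genes Tagln, at 36.5 and 57.7, and Acta2, at 14.59 and 14.58. That of 12 epithelial markers was 93.6 and 108 (9 higher, 3 lower), and that of 10 gonad stroma and steroidogenic markers 13.8 and 18.3 (6 higher, 4 lower, Star listed at 0 in control and Tcf21 and Cyp17a1 in Klf9-OE). Macrophage and blood markers summed to 9.73 and 11.04 over 13 genes (4 higher, 7 lower). Of those, 10 were under 1 in each library, Hba-x and Hbb-bh1 were listed at 0 in both, Lyz2 was at 0 with Klf9, and Csf1r was the only member. Sertoli and granulosa markers summed to 45.8 and 48.7 (6 higher, 6 lower, Fgf9 listed at 0 in Klf9-OE), and endothelial markers to 14.8 and 15.9 (5 higher, 7 lower, Emcn listed at 0 in Klf9-OE). Xist, the long RNA of the inactive X, was a member at 0.829 (0.739 to 0.920) and 2.05 (1.91 to 2.20) without being read-matched, while Y-linked Ddx3y had 3.76 and 4.29 and Eif2s3y 59.0 and 49.3. The part of these markers in the matrix, chemokine and stress genes above was not tested, and in bulk RNA more cells of a type and more RNA per cell cannot be told apart.

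At the threshold, the 5 genes just inside were Dab1, Srf, Primpol, Nt5e and Gngt2, with the Klf9-OE lower bound from 1.5003 to 1.5075 times the control upper bound, and the 5 just outside were 2810417H13Rik, Ube2d3, Tlr12, Tnfrsf12a and Tcf15, from 1.4844 to 1.4995. Just inside, Nt5e, an ectoenzyme that makes adenosine, had 3.05 (2.69 to 3.42) and 5.74 (5.15 to 6.33). Just outside, Tnfrsf12a, a cytokine receptor induced by growth factors, had 14.6 (12.8 to 16.4) and 26.6 (24.3 to 29.0). The values on the sides of the threshold are alike, and Tlr12 and Tcf15 outside it were read-matched, as was Gngt2 inside it, where Dab1, Srf, Primpol and Nt5e were not. Where the Klf9-OE interval was widened by the square root of 2, 170 of the 226 genes and 31 of the 41 read-matched genes remained, without Ccl7, Tbxa2r, Nqo1, Gpx8, Gngt2, Slco2a1, Plscr2, Clic5, Eps8 and Cdc14b, and Srf was lost as well. That width was tried because implied read numbers from 1 to 9, taken as whole within 0.06, were even for 88.1% of 1345 genes in the Klf9-OE library (95% Wilson interval 86.3% to 89.7%), against 39.7% of 1575 in control PGCs (37.4% to 42.2%), counting error only.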

How the data were processed

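RNA-seq of 1 control and 1 Klf9-OE library of E13.5 PGCs (TruSeq v2, 51-mer single-end reads, no strand) was used. TopHat2 and Bowtie placed the reads on mm10, and the authors deposited FPKM per locus with Cufflinks 95% bounds, with versions not given in the sources used here. For single-end reads FPKM equals the RPKM of the study. Read totals are not in the files, so depth was inferred from interval widths in genes with at least 50 implied reads. The reassembly of transcripts in each library can move a gene's locus and FPKM. Members were taken by the interval rule above. Members, gene lists and the naming rule were chosen with earlier results of these data known. Named were the 30 largest ratios, the 15 highest Klf9-OE FPKM, the largest and most abundant members of each list, threshold genes and neighbours, from which the text selects, and the other read-matched genes and 6 promoters were chosen after values were seen. Ratios used FPKM as deposited, and log2 differences a pseudocount of 0.1. With 1 library per group no test, p-value or left-out replicate was possible. Alternatives were other gaps, scalings, interval widths, FPKM minimums and pseudocounts. The rule was also run on simulated reads, with the width of each interval set by the read number alone. Most members here depart from that setting, so the simulation does not show how the rule performs on these libraries. One gene list and one marker are not reported here. Promoters came from a RefSeq table (GRCm38.p6), matched by symbol and position. Scripts ran on matplotlib 3.10.9, scipy 1.17.1, pandas 2.3.3, numpy 2.4.6 and Python 3.11.15.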

Additional observations from a re-analysis of the deposited data

How the results depend on the processing

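With 1 library per group, no replicate could be left out. No paired analysis was possible because each group is 1 library. The 226 higher genes became 1666 with a gap of 1 and 89 with a gap of 2, 145 with both intervals widened by the square root of 2, and 142 with an FPKM of at least 5. The 274 lower genes became 2373, 66 and 181 under the first 3 of these. Requiring implied reads to match, chosen after the data were seen, left 34, 41 or 65 higher genes at tolerances of 5%, 10% and 25%, and 31 at 10% with the Klf9-OE interval widened. The 84 members in gene lists became 495 with a gap of 1, 30 with a gap of 2 and 26 read-matched. The cause of these changes is the construction of each alternative, which admits more or fewer genes. Rescaling to the same upper quartile or sum gave 247 and 253 higher genes, the 226 all among them, and 241 and 230 lower genes, so that the larger side changed from lower to higher, with the eligible median at 0.02 and 0.04 in place of -0.02. The median ratio stayed between 1.97 (pseudocount of 1) and 2.71 (read-matched). Shares of motifs in member promoters were not run, since 74.3% of members had a promoter.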
